A study of Mus musculus with 38 samples.

Results

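Histone demethylases were followed here across 5 cohorts of mice with MLL-fusion leukaemia and in normal bone marrow. They were 8 of 18194 genes with a probe set of their own on the array: Jmjd1c, Kdm1a, Kdm2a, Kdm2b, Kdm3a, Kdm4a, Kdm4c and Kdm6b. All probe sets annotated to exactly 1 of these symbols were taken. A probe set is the group of short oligonucleotides that reports a transcript on an Affymetrix array. The rule found 21 probe sets among 45037 that are not controls: 7 for Kdm2a, 3 each for Jmjd1c and Kdm6b, 2 each for Kdm1a, Kdm2b and Kdm4a, and 1 each for Kdm3a and Kdm4c. One further probe set, 1440346_at, carries Kdm6b together with a second symbol and was left out by the rule.

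Per the labels, each leukaemia was started by infecting c-kit+ marrow progenitors with a retrovirus carrying an MLL fusion oncogene and transplanting them into lethally irradiated syngeneic C57BL/6 mice of either sex. MLL fusions join the front of the H3K4 methyltransferase gene Kmt2a to a partner gene. The cohorts carried MLL-AF1p (9 mice), MLL-AF10 (8 mice), MLL-GAS7 (5 mice), MLL-AF9 (5 mice) and MLL-ENL (7 mice), and 4 untransplanted wild-type C57BL/6 mice gave normal marrow, so irradiation and transplantation separate the normal mice from all cohorts. RNA came from whole cryopreserved marrow taken, in the leukaemic mice, at euthanasia, with 1 array per mouse and 38 arrays in all. Age, disease burden and the promoter driving the oncogene are not stated in the labels. In whole marrow, fewer cells of a type and less RNA per cell cannot be told apart.

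Histone demethylases remove methyl groups from lysines of histone tails and so help set which genes are open to transcription. Kdm1a uses a flavin cofactor and removes methylation from H3K4. The other members belong to the JmjC family of iron- and oxoglutarate-dependent oxygenases: Kdm3a acts on H3K9, Jmjd1c is its close relative, Kdm4a and Kdm4c act on H3K9 and H3K36, Kdm2a and Kdm2b act on H3K36, and Kdm6b acts on H3K27. In acute myeloid leukaemia, Kdm1a is a drug target, and Kdm2b and Jmjd1c have been studied as genes that leukaemia cells need. Kdm2a and Kdm2b also carry a CXXC zinc finger that binds unmethylated CpG dinucleotides, and Kdm2b brings a variant Polycomb repressive complex to CpG islands.

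The genes lie at chr10:67096351-67256326 (Jmjd1c), chr4:136550533-136602787 (Kdm1a), chr19:4316144-4398721 (Kdm2a), chr5:122870664-122989270 (Kdm2b), chr6:71588970-71632990 (Kdm3a), chr4:118136957-118180090 (Kdm4a), chr4:74242497-74405864 (Kdm4c) and chr11:69398508-69420367 (Kdm6b) in GRCm38.p6. All 8 were matched to RefSeq by Entrez identifier. No source used here places the probe sets within their transcripts.

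The promoters of Jmjd1c and Kdm2b are shown because these were the 2 genes with every probe set higher in leukaemia. Each sequence is from RefSeq (GRCm38.p6), runs 5′ to 3′ on the gene's strand from 250 bases before to 50 after an annotated start, and has Meis motifs (TGACAG or CTGTCA) and GC boxes (GGGCGG or CCGCCC) in capitals. Meis1 is a homeobox cofactor that MLL fusions switch on, and GC boxes bind Sp-family factors.
Jmjd1c promoter 1: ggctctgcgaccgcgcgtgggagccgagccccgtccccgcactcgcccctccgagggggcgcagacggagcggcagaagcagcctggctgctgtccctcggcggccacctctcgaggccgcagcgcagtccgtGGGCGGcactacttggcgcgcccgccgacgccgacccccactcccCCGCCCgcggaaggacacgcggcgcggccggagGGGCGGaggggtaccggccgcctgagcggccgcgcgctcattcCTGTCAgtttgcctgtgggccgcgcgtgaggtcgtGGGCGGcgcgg
Jmjd1c promoter 2: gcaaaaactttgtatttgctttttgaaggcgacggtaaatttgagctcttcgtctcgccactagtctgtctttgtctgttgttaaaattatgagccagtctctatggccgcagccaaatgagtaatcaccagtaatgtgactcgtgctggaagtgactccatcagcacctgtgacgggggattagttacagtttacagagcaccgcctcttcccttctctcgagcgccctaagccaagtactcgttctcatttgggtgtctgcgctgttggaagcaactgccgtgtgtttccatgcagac
Kdm2b promoter 2: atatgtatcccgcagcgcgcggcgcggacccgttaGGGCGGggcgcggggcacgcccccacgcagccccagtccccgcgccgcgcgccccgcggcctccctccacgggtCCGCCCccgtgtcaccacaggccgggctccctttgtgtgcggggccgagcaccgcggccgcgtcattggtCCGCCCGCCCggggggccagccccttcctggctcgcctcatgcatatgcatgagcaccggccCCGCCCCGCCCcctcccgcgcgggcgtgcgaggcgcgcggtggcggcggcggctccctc
Kdm2b promoter 3: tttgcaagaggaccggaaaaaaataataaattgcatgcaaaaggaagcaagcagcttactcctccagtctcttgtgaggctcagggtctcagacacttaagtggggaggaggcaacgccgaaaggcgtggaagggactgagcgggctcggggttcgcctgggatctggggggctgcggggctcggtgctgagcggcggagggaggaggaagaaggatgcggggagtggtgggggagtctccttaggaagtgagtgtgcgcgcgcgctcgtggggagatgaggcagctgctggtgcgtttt
Kdm2b promoter 4: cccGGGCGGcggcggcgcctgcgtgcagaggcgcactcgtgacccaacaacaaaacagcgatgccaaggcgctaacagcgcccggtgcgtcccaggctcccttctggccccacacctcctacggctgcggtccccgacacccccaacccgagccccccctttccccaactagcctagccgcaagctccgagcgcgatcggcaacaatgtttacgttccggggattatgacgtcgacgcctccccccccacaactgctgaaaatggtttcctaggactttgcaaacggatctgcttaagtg
The first Jmjd1c promoter, at chr10:67126838-67127137 on the plus strand, held 47 CpG dinucleotides in 300 bases, and 98.6% of 32851 RefSeq promoters of that length held fewer (median 7). It had 1 Meis match, a motif found in 19.2% of those promoters on either strand, and 4 GC boxes, found at least once in 35.7%. The second Jmjd1c promoter, at chr10:67185500-67185799, held 13 CpG dinucleotides and neither motif. Both Jmjd1c promoters lie inside the gene as given above, so neither is at its 5′ end. Kdm2b has 4 promoters in the table. The second, at chr5:122900318-122900617 on the minus strand inside the gene, held 47 CpG dinucleotides, 6 GC boxes, of which pairs overlapped, and no Meis match. The first, not shown, overlaps it and held 49 CpG dinucleotides and 6 GC boxes. The third, at chr5:122988458-122988757, held 18 CpG dinucleotides and neither motif. The fourth, at chr5:122989050-122989349 at the gene's 5′ end, held 28 CpG dinucleotides, 1 GC box and no Meis match. No promoter of the 6 members in the table matched the Hox-Pbx motif TGATTNAT (3.22% of all promoters), the second Kdm4c promoter held 2 copies of the Myc E-box CACGTG (7.15%), and CCAAT or its reverse ATTGG, found in 37.4%, stood in promoters of Kdm1a, Kdm2b, Kdm3a and Kdm4a. These matches describe letters and are not evidence of binding.

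Levels below are log2(intensity + 46.1) with the array medians made equal, and a difference of 1 on that scale is a doubling of intensity + 46.1. The arrays' median intensity ranged from 129.2 to 208.3 as deposited. Of the 21 probe sets, 18 exceeded the array median on at least 4 arrays and were tested. The other 3, Kdm2a 1443336_at and 1458449_at and Kdm4a 1446699_at, had group means between 6.04 and 7.10 and were not tested.

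Markers of other marrow cell types moved with leukaemia. With the 5 cohorts weighted equally, all 7 B-cell, 7 T- and NK-cell, 4 megakaryocyte and 3 stromal markers tested fell against normal marrow. So did 5 of 6 erythroid and 5 of 7 late neutrophil markers, while 6 of 7 myeloid progenitor and monocyte markers rose. Not every cohort shared each fall: the T- and NK-cell marker Nkg7 had a mean of 11.43 in MLL-AF9 and 11.22 in normal marrow. The summed erythroid level was 15.67 to 16.19 in normal marrow and 8.89 to 10.31 in the leukaemias, and the summed B-cell level was 13.14 to 14.21 and 10.28 to 12.08. Among the cohorts, limma's F test called 3 of the 7 late neutrophil markers (Ltf, Mmp8 and Itgb2l), each lowest in MLL-ENL by mean. Of those it did not call, Camp and Ngp were also lowest in MLL-ENL, while Mmp9 and Cxcr2 were lowest in MLL-AF9. The F test also called 2 of the 7 myeloid progenitor and monocyte markers and 2 of the 7 T- and NK-cell markers. It called 1 each of the B-cell, megakaryocyte and stromal markers and 0 of the erythroid ones. No marker intensity was at 0, and what part these cells have in the differences given here was not tested. The arrays also fell into a pair of sets by 11 co-varying probe sets: a low set of 20 arrays, with normal mice 3 and 4, and a high set of 18, with normal mice 1 and 2. Every group had arrays in both sets, the labels give no reason for the split, and it was drawn after the data were seen. Of 31 calls of a member probe set in 1 cohort against normal marrow, 14 were kept within the low set and 15 within the high set. Fewer mice enter there, and 5 calls were kept in both. Over all probe sets, 14% to 26.4% passed for single cohorts within the low set and 7.49% to 19% within the high set. With the set as a term in the fit all 31 were kept. Within the low set 7 calls were gained, and within the high set 2. The actin 3′ minus 5′ log2 difference, a measure of RNA integrity, was 0.07 to 0.22 in normal mice. In the leukaemias it ran from 0.15 in MLL-AF1p_808 to 0.65 in MLL-AF10_799A. It went partly with the sets of arrays. In every cohort the lowest value lay in the low set, and in all but MLL-AF10 the highest lay in the high set. In MLL-ENL it was 0.19 to 0.26 in the low set and 0.24 to 0.34 in the high set. The normal mice read 0.11 and 0.15 in the low set and 0.07 and 0.22 in the high set. What part RNA integrity has in the sets of arrays or in the differences given here was not tested.

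The sex of the marrow cells, as read by Xist, also differed between the groups. Xist, the RNA that coats the inactive X chromosome of female cells, was low in the 4 normal mice (8.18 to 9.09) and in 4 of 5 MLL-AF9 mice (8.74 to 10.66), and it was above 14 in the other 30 leukaemias. In transplanted mice, marrow Xist reports the cells present, donor or host, and not the sex of the recipient. For the MLL-AF1p, MLL-AF10, MLL-GAS7 and MLL-ENL cohorts, leukaemia and cell sex therefore cannot be told apart in any comparison with normal marrow. Without MLL-AF9-305, the Xist-high mouse of its cohort, 4 MLL-AF9 and 4 normal mice were all low in Xist, and the same 7 member probe sets passed in limma as with all 5: Jmjd1c 1426900_at was 1.11 higher (adjusted p = 0.000175), 1448049_at 1.03 (0.000576) and 1439998_at 0.77 (0.0302). Kdm2b 1459861_s_at was 0.77 higher (0.0144) and 1452198_at 0.79 (0.00423), while the difference was -0.85 on Kdm2a 1438890_at (0.000601) and -1.54 on Kdm6b 1442643_at (0.000612).

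Against normal marrow, 5 of the 18 tested probe sets rose in leukaemia, all 3 of Jmjd1c and both of Kdm2b, and 3 fell, 1 of Kdm2a and 2 of Kdm6b. The limma contrast gave the 5 cohorts equal weight against the normal mice, and a probe set counted as changed at a Benjamini-Hochberg adjusted p below 0.05 over 29004 probe sets. Over all probe sets, 36.9% changed, 24.9% upward and 12.1% downward, so the members' 8 of 18 lay near the background. Their median difference was -0.04, against 0.14 for all probe sets. The median over all probe sets moved to 0.01 on deposited values and to 0.08 with quantile normalization.

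**Figure D1:**
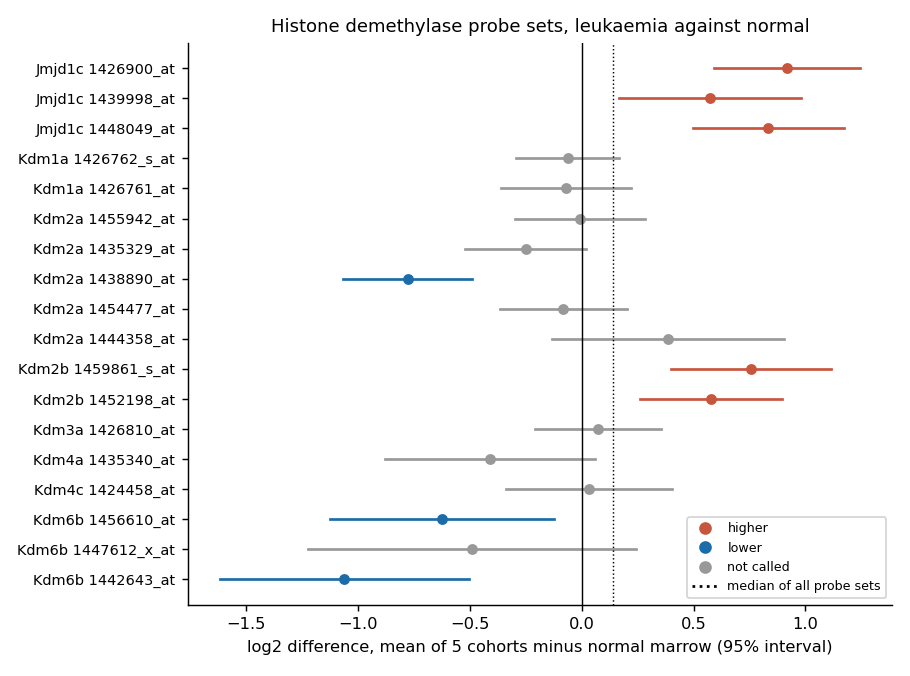
Log2 difference, leukaemia (5 cohorts weighted equally) minus normal marrow (x axis), for the 18 tested probe sets (y axis), with 95% intervals from limma; colours show probe sets that were higher, lower or not called, and the dotted line is the median of all probe sets, 0.14. The 3 Jmjd1c and 2 Kdm2b probe sets lie to the right of the dotted line, and Kdm2a 1438890_at and 2 Kdm6b probe sets lie to the left of 0.

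Jmjd1c was the member with the largest rise. Its brightest probe set, 1426900_at, read 10.65, 11.07, 10.68 and 10.84 in normal mice 1 to 4. From low to high, the MLL-GAS7 mice read 11.35, 11.62, 11.92, 11.96 and 12.14, and the MLL-AF9 mice 11.39, 11.75, 11.78, 12.24 and 12.27. The lowest, median and highest MLL-AF1p mice read 11.38, 11.73 and 12.22, those of MLL-AF10 11.55, 11.88 and 12.45, and those of MLL-ENL 10.95, 11.28 and 11.47. Thus 33 of 34 leukaemias lay above every normal mouse, and the exception was MLL-ENL_701, which lay just below normal mouse 2. The difference between leukaemia and normal marrow was 0.92 ± 0.16 (SE; 34 leukaemias, 4 normal mice), 1.89-fold, with a limma adjusted p of 1.85e-05.

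The dimmer Jmjd1c probe set 1448049_at read 8.41, 8.88, 8.00 and 7.98 in normal mice 1 to 4, and 27 of 34 leukaemias lay above all of them. Of the 7 within the normal range, 5 were MLL-ENL, 1 MLL-AF1p and 1 MLL-GAS7. The difference was 0.83 ± 0.17, 1.78-fold (limma adjusted p = 0.000109), and it was 0.42 with an adjusted p of 0.287 within the high set of arrays. The third probe set, 1439998_at, read 8.36, 9.34, 9.09 and 9.21 in the normal mice and lay above them in 25 of 34 leukaemias, with a difference of 0.58 ± 0.20, 1.49-fold (limma adjusted p = 0.0223). Normal mouse 1 was low here: without it the difference was 0.36 with an adjusted p of 0.223. This call also ended on the values as deposited (0.45, adjusted p = 0.0898) and within either set of arrays (0.55 and 0.61, adjusted p = 0.159 and 0.108).

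**Figure D2:**
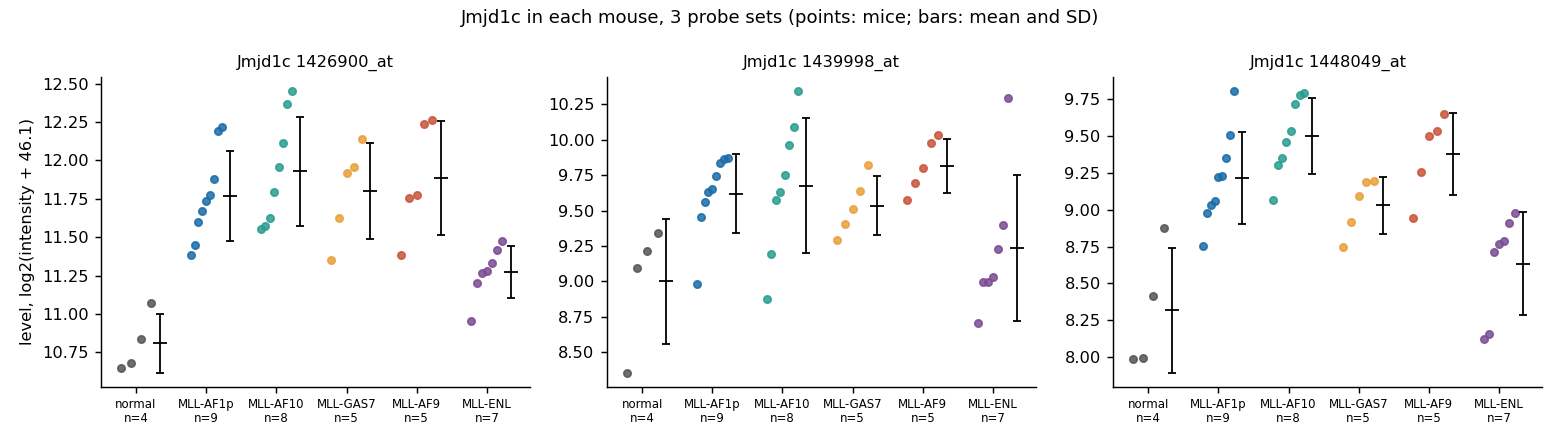
Level of the 3 Jmjd1c probe sets in each mouse, as log2(intensity + 46.1), by group; points are mice in order of level and bars are the mean and SD. On 1426900_at 33 of 34 leukaemias sit above the highest normal mouse (11.07), and the MLL-ENL mice sit lowest among the cohorts on all 3 probe sets by mean.

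The cohorts did not carry Jmjd1c at the same level. By the mean of 1426900_at the order was MLL-AF10 (11.93 ± 0.35, SD), MLL-AF9 (11.88 ± 0.37), MLL-GAS7 (11.80 ± 0.31), MLL-AF1p (11.77 ± 0.29), MLL-ENL (11.28 ± 0.17) and normal marrow (10.81 ± 0.19). The first 4 cohorts lay within 1 SD of each other, and MLL-ENL lay apart: its highest mouse, 11.47, was below the median of every other cohort. MLL-ENL was lower than the mean of the other 4 cohorts by 0.57 ± 0.13 on 1426900_at (limma log2 difference -0.57, adjusted p = 0.0110) and by 0.65 ± 0.13 on 1448049_at (-0.65, adjusted p = 0.00505), where 3.83% of all probe sets differed between MLL-ENL and the rest and 1.11% were lower. On 1439998_at the same contrast was -0.43 with an adjusted p of 0.121, and -0.60 with an adjusted p of 0.0223 without MLL-ENL_742, whose 10.29 was the highest of its cohort. Within the low and high sets of arrays the MLL-ENL contrast kept its sign but not its call on 1426900_at (-0.49 and -0.68, adjusted p = 0.222 and 0.195) and on 1448049_at (-0.46 and -0.77, adjusted p = 0.192 and 0.127).

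Set against normal marrow one cohort at a time, Jmjd1c rose on all 3 probe sets in MLL-AF1p, MLL-AF10 and MLL-AF9 and on 2 in MLL-GAS7. On 1426900_at MLL-AF10 was 1.12 ± 0.19 above normal marrow, MLL-AF9 1.07 ± 0.20, MLL-GAS7 0.99 ± 0.20 and MLL-AF1p 0.96 ± 0.18, with limma adjusted p between 1.07e-05 and 0.000377. In MLL-ENL none of the 3 was called: 1426900_at was 0.46 ± 0.19 higher (adjusted p = 0.0546), 1448049_at 0.32 ± 0.20 (0.219) and 1439998_at 0.23 ± 0.24 (0.482). The first of these sits at the threshold, since it was called when the filter kept probe sets above the median on 19 arrays (adjusted p = 0.0454) and without MLL-ENL_701 (0.52, adjusted p = 0.0374). It also passed without normal mouse 2 (0.55, 0.0414), with a constant of 1 (0.0381), when MLL-ENL was fitted with normal marrow alone (0.0178), and without any of MLL-AF1p_811, MLL-AF10_782A, MLL-GAS7_407, MLL-GAS7_410 and MLL-AF9_307 (0.0468 to 0.0497). Within the low set of arrays 1448049_at in MLL-ENL was 0.90 and passed (adjusted p = 0.00667). These 5 comparisons share the 4 normal mice.

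The cohort calls of the dimmer Jmjd1c probe sets were less stable than those of 1426900_at, which lost 1, that of MLL-AF9 within the high set (0.94, adjusted p = 0.0595). On 1439998_at the calls of MLL-AF1p, MLL-AF10 and MLL-AF9 all ended on deposited values (adjusted p = 0.0986, 0.0728 and 0.0528), without normal mouse 1 (0.40, 0.46 and 0.60, adjusted p = 0.229, 0.168 and 0.1) and within either set. On 1448049_at the calls of all 4 cohorts ended within the high set, where MLL-GAS7 was 0.19 (adjusted p = 0.804), MLL-AF9 0.60 (0.227), MLL-AF1p 0.64 (0.166) and MLL-AF10 0.87 (0.0747). The MLL-GAS7 call on that probe set, 0.71 with an adjusted p of 0.0115, also ended when fitted with normal marrow alone (0.0564), without normal mouse 3 or 4 (0.0557 and 0.0616) and with the 5 arrays brightest in hybridisation controls left out (0.59, 0.112).

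Kdm3a, an H3K9 demethylase and close relative of Jmjd1c, was not called in any comparison. Its probe set 1426810_at had a mean of 10.20 ± 0.31 (SD, n = 4) in normal marrow and cohort means from 10.15 in MLL-ENL to 10.55 in MLL-AF9. The difference between leukaemia and normal marrow was 0.07, with a 95% interval from -0.21 to 0.35. The largest cohort difference was that of MLL-AF9, 0.35 ± 0.18 (limma adjusted p = 0.145). Kdm3b, of the same family but outside the members, was 0.50 higher in leukaemia (limma adjusted p = 0.000243).

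The members of the Kdm4 family, which can act on H3K9 and H3K36, were not called either. Kdm4c 1424458_at differed by 0.03 (95% interval -0.34 to 0.41), and 27 of 34 leukaemias lay within the range of the normal mice. Kdm4a 1435340_at differed by -0.41 (-0.88 to 0.06, limma adjusted p = 0.169), with no leukaemia above and 6 below all normal mice, whose range of 8.38 to 9.84 was wide. Kdm4a depended on normal mouse 4, the lowest of them: without it the difference was -0.67 and passed the test (adjusted p = 0.0402), as it did within the high set of arrays, which lacks that mouse (-0.97, adjusted p = 0.0249). MLL-AF9, at -0.65 (0.0948), passed without that mouse too (-0.92, 0.0258).

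Kdm2b, the CpG-binding H3K36 demethylase of the variant Polycomb complex, rose in leukaemia on both probe sets. On 1459861_s_at normal mice 1 to 4 read 10.40, 10.71, 10.24 and 10.32. The MLL-GAS7 mice read 10.51, 11.42, 11.55, 11.74 and 11.82, and the MLL-AF9 mice 11.08, 11.10, 11.11, 11.13 and 11.40. MLL-AF1p ran from 10.18 to 11.10 (median 10.90), MLL-AF10 from 10.55 to 11.92 (11.18) and MLL-ENL from 11.17 to 11.66 (11.29). All MLL-ENL and MLL-AF9 mice lay above every normal mouse, mouse MLL-GAS7_407 stood apart from its cohort at a normal level, and MLL-AF1p overlapped the normal range. The difference between leukaemia and normal marrow was 0.76 ± 0.18, 1.69-fold (limma adjusted p = 0.000797), with 28 of 34 leukaemias above all normal mice.

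The other Kdm2b probe set, 1452198_at, read 10.16, 10.18, 10.19 and 10.40 in the normal mice, and 27 of 34 leukaemias lay above all of them. Its difference was 0.58 ± 0.16, 1.49-fold (limma adjusted p = 0.00348). Within the low and high sets of arrays it was 0.54 and 0.58 with adjusted p of 0.0686 and 0.0835, and 1459861_s_at was 0.50 (0.220) within the high set.

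**Figure D3:**
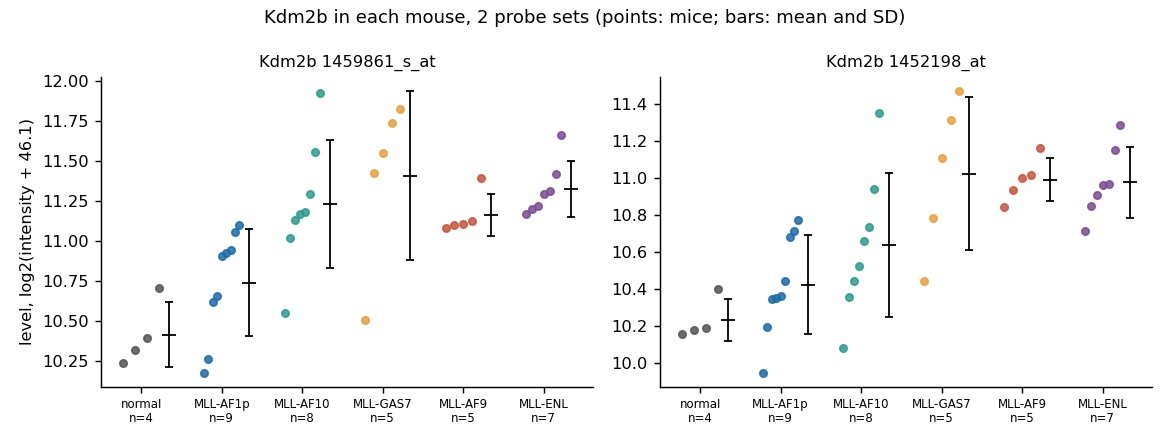
Level of the 2 Kdm2b probe sets in each mouse, as log2(intensity + 46.1), by group; points are mice in order of level and bars are the mean and SD. All MLL-AF9 and MLL-ENL mice lie above the highest normal mouse on both probe sets, while MLL-AF1p has the lowest mean of the cohorts.

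Kdm2b varied among the cohorts in another order from Jmjd1c. On 1459861_s_at the means ran from MLL-GAS7 (11.41 ± 0.53, SD) through MLL-ENL (11.32 ± 0.17), MLL-AF10 (11.23 ± 0.40) and MLL-AF9 (11.16 ± 0.13) to MLL-AF1p (10.74 ± 0.33) and normal marrow (10.42 ± 0.20). MLL-AF1p was lower than the mean of the other 4 cohorts on 1459861_s_at (-0.54 ± 0.13, limma adjusted p = 0.0230) and 1452198_at (-0.48 ± 0.12, adjusted p = 0.0224), where 1.26% of all probe sets differed between MLL-AF1p and the rest and 0.865% were lower. Against normal marrow neither was called in MLL-AF1p (0.32 and 0.19, adjusted p = 0.229 and 0.445). Both passed against normal marrow for the GAS7 (0.99 and 0.79), AF9 (0.75 and 0.76) and ENL fusions (0.91 and 0.74), and 1459861_s_at alone passed for AF10 (0.81). Within the high set of arrays the 1459861_s_at calls ended, at 0.37 for AF10 (adjusted p = 0.528), 0.61 for GAS7 (0.341), 0.66 for AF9 (0.206) and 0.69 for ENL (0.131), and the AF9 call also ended within the low set (0.81, 0.0720). On 1452198_at the calls ended within the low set for GAS7 (0.77, 0.0520), AF9 (0.63, 0.153) and ENL (0.69, 0.0622), and for GAS7 within the high set (0.79, 0.129).

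The size of the MLL-AF1p contrast moved little when 1 mouse was left out, but its call was lost. Without mouse MLL-AF1p_803 the contrast with the other cohorts was -0.47 on 1459861_s_at and -0.42 on 1452198_at, with adjusted p of 0.0904 and 0.0863. Without MLL-AF1p_801 or MLL-AF1p_806 the first lost its call (adjusted p = 0.0619 and 0.0508), and without MLL-AF1p_810 the other did (0.0577). Within the low and high sets of arrays the contrast was -0.62 and -0.41 on 1459861_s_at (adjusted p = 0.111 and 0.758) and -0.60 and -0.30 on 1452198_at (0.112 and 0.821).

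Kdm2a, the paralogue of Kdm2b, gave different answers from different probe sets. The brightest, 1455942_at, was 10.80 ± 0.20 (SD, n = 4) in normal marrow and differed in leukaemia by -0.01, with a 95% interval from -0.30 to 0.28. Probe set 1438890_at fell. Normal mice 1 to 4 read 9.39, 9.82, 9.25 and 9.35. The MLL-GAS7 mice read 8.37, 8.49, 8.70, 8.75 and 8.79, and the MLL-AF9 mice 8.39, 8.54, 8.75, 8.76 and 9.14. MLL-AF1p ran from 8.18 to 8.98 (median 8.60), MLL-AF10 from 8.20 to 9.16 (8.84) and MLL-ENL from 8.30 to 9.00 (8.58). No leukaemia reached the lowest normal mouse, a pattern shown by 3.8% of all probe sets. The difference was -0.78 ± 0.14, 1.71-fold lower (limma adjusted p = 3.55e-05), and it passed in each cohort (-0.62 in MLL-AF10 to -0.86 in MLL-ENL).

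Within the low set of arrays the calls of MLL-AF10 (-0.33, adjusted p = 0.229), MLL-AF9 (-0.35, 0.339) and MLL-ENL (-0.58, 0.0573) ended. The contrast of all leukaemias with normal marrow kept its call on this probe set under every alternative tried, from -1.04 to -0.52. The other 3 tested Kdm2a probe sets were not called: 1435329_at was -0.25 (adjusted p = 0.141), 1454477_at -0.08 (0.687) and 1444358_at 0.39 (0.25). Of these, 1435329_at passed on the values as deposited (-0.38, adjusted p = 0.0192), after quantile normalization (-0.34, 0.0343) and without normal mouse 4 (-0.39, 0.0435). Probe set 1444358_at passed within the low set of arrays (0.95, 0.00989). It exceeded the array median on 4 arrays, the fewest the filter allowed, and all were leukaemias. It was thus tested only through leukaemias where it read high, and no conclusion is drawn from its pass. Its mean intensity was 76.5 in normal marrow and at most 117.1 in a cohort. Across the 34 leukaemias, with cohort means removed, Pearson correlations between pairs of the 5 Kdm2a probe sets ran from -0.18 to 0.49, so the probe sets did not report one common level.

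Kdm1a, the flavin-dependent H3K4 demethylase of the CoREST complex, showed no difference between leukaemia and normal marrow that passed. Its brighter probe set, 1426762_s_at, read 10.58, 10.56, 10.42 and 10.59 in the normal mice and differed by -0.06 (95% interval -0.29 to 0.17). The other, 1426761_at, differed by -0.07 (-0.36 to 0.22). After quantile normalization 1426762_s_at was -0.23 with an adjusted p of 0.0437.

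One cohort stood lower for Kdm1a. On 1426762_s_at MLL-AF1p had a lowest, median and highest level of 9.76, 10.16 and 10.59, against 10.30, 10.51 and 10.64 in MLL-AF10 and 10.37, 10.56 and 10.69 in MLL-ENL. The ranges overlapped, but MLL-AF1p was lower than the mean of the other 4 cohorts (-0.35 ± 0.08, 1.27-fold lower, limma adjusted p = 0.0218) and lower than normal marrow (-0.34 ± 0.13, adjusted p = 0.0381). The call against normal marrow ended with a constant of 1 (0.0793), with no filter (0.0555), when fitted with normal marrow alone (0.162), within either set (0.156 and 0.441), with the 5 brightest arrays left out (0.0510), and without any of normal mice 1, 2 and 4 or MLL-AF1p_801, MLL-AF1p_803, MLL-AF1p_806 and MLL-AF1p_808 (0.0571 to 0.0952). Without MLL-AF1p_801, MLL-AF1p_803 or MLL-AF1p_806 the contrast with the other cohorts was -0.32, -0.29 and -0.32, and its adjusted p was 0.0515, 0.0864 and 0.0645. It was -0.43 and -0.24 within the low and high sets of arrays (adjusted p = 0.170 and 0.843). The other Kdm1a probe set was -0.16 in that contrast (adjusted p = 0.612).

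Kdm6b, the H3K27 demethylase induced in inflammatory myeloid cells, fell on 2 of its 3 probe sets. On 1442643_at normal mice 1 to 4 read 8.98, 8.80, 9.01 and 8.11. The MLL-GAS7 mice read 6.24, 7.65, 7.70, 8.02 and 8.46, and the MLL-AF9 mice 6.41, 6.87, 7.67, 7.79 and 8.70. MLL-AF1p ran from 6.79 to 8.45 (median 7.64), MLL-AF10 from 7.25 to 8.35 (7.80) and MLL-ENL from 7.51 to 8.24 (7.71). Thus 29 of 34 leukaemias lay below all normal mice, and the other 5 lay above normal mouse 4, which was low. The difference was -1.06 ± 0.28, 2.09-fold lower (limma adjusted p = 0.00230), and every cohort passed (-0.93 in MLL-ENL to -1.24 in MLL-AF9). Within the low set of arrays it was -0.55 with an adjusted p of 0.168, and all 5 cohorts lost their call there, from -0.38 in MLL-AF9 (0.559) to -0.68 in MLL-AF10 (0.128). The calls of MLL-AF10, MLL-GAS7 and MLL-ENL also ended without normal mouse 1 or 3 (adjusted p from 0.0563 to 0.0777), and that of MLL-ENL without normal mouse 2 (0.0541) and with a constant of 1 (0.0588). MLL-GAS7, at -1.11, was -0.77 without MLL-GAS7_407 (0.0808), -0.74 with array weights (0.0780) and -0.70 with the 5 brightest arrays left out (0.187), and it lost its call when fitted with normal marrow alone (0.0751).

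The brightest Kdm6b probe set, 1456610_at, read 10.30, 10.67, 11.42 and 10.73 in normal mice 1 to 4, and 19 of 34 leukaemias lay below all of them. The difference was -0.63 ± 0.25, 1.54-fold lower (limma adjusted p = 0.0436), and MLL-AF10 alone was called against normal marrow (-0.80, adjusted p = 0.0286). That call ended without MLL-AF10_780A, MLL-AF10_783A or MLL-AF10_799A (0.0514 to 0.0568), without normal mouse 3 or 4 (0.162 and 0.0555) and with the 5 brightest arrays left out (-0.61, 0.124). Within the low set of arrays MLL-AF1p (-1.06, adjusted p = 0.0222), MLL-GAS7 (-1.16, 0.0293) and MLL-ENL (-1.27, 0.0134) were called too, and MLL-GAS7 was also called without MLL-GAS7_407 (-0.85, 0.0432). Without normal mouse 3, the highest, the difference of all leukaemias was -0.41 with an adjusted p of 0.273, and within the high set of arrays, which lacks that mouse, it was -0.01. The call also ended without normal mouse 2 or 4 (adjusted p = 0.0715 and 0.0882), without MLL-GAS7_405, MLL-GAS7_406, MLL-GAS7_408, MLL-GAS7_410, MLL-AF9_307 or MLL-AF9_310 (0.0504 to 0.0531), with a constant of 1 (0.0617) and with no filter (0.0606), and it was -0.48 (0.169) with the 5 arrays brightest in hybridisation controls left out. Probe set 1447612_x_at was -0.49 ± 0.36 (adjusted p = 0.306), and the left-out 1440346_at was -0.45 (adjusted p = 0.170).

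**Figure D4:**
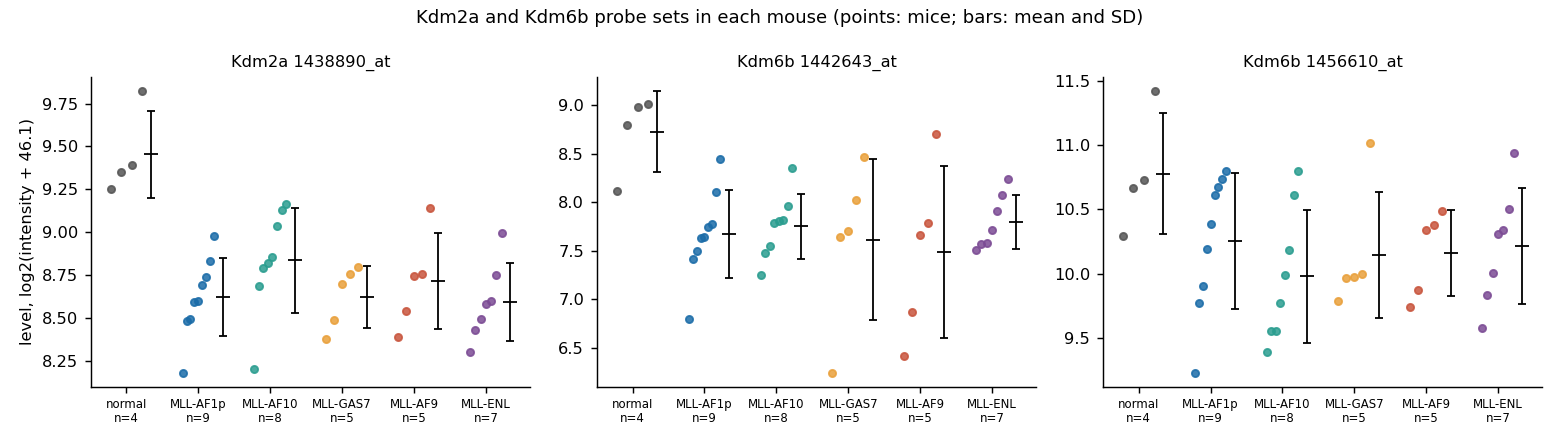
Level of Kdm2a 1438890_at and of Kdm6b 1442643_at and 1456610_at in each mouse, as log2(intensity + 46.1), by group; points are mice in order of level and bars are the mean and SD. All 34 leukaemias lie below the lowest normal mouse on Kdm2a 1438890_at, 29 do so on Kdm6b 1442643_at, and 19 on Kdm6b 1456610_at.

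The Kdm6b probe sets did not move together between mice. With cohort means removed, 1456610_at and 1447612_x_at had a Pearson correlation of 0.84 over the 34 leukaemias, while 1442643_at had -0.36 and -0.25 with them. The sets of arrays moved with these values: within groups, the low set minus the high set was -0.39 on 1456610_at, -0.52 on 1447612_x_at and 0.54 on 1442643_at. The part of the sets in the Kdm6b differences was not tested beyond the within-set values.

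Counted by cohort against normal marrow, 3 of the 18 tested probe sets rose and 4 fell in MLL-AF1p, where 20.6% of all probe sets rose and 11.3% fell (31.9% in either direction). In MLL-AF10, 4 rose and 3 fell, against 21.9% and 10.8% of all probe sets (32.7%). In MLL-GAS7, 4 rose and 2 fell, against 13.3% and 9.33% (22.6%). In MLL-AF9, 5 rose and 2 fell, against 18.7% and 9.02% (27.7%). MLL-ENL had the fewest, with 2 that rose, both of Kdm2b, and 2 that fell, against 25.1% and 10.3% of all probe sets (35.4%). The counts lay near these backgrounds and by themselves set the members apart from other probe sets in no cohort. In MLL-AF1p the 4 that fell were Kdm2a 1438890_at, Kdm6b 1442643_at, Kdm1a 1426762_s_at and Kdm2a 1435329_at, the last with a difference of -0.39 and a limma adjusted p of 0.0431. This last call ended within the low (-0.21, 0.485) and high (-0.57, 0.128) sets of arrays, with a constant of 1 (0.0652), with no filter (0.0616), when fitted with normal marrow alone (0.0950) and with the 5 brightest arrays left out (0.0694). It also ended without normal mouse 1, 2 or 3 (-0.37, -0.27 and -0.40, adjusted p = 0.106, 0.224 and 0.0743) and without any of 5 MLL-AF1p mice (0.0505 to 0.0780).

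Among the 5 cohorts alone, 3 of 18 probe sets differed by limma's F test, where 6.28% of all probe sets did: Jmjd1c 1448049_at (adjusted p = 0.00474), Kdm2b 1452198_at (0.0226) and Jmjd1c 1426900_at (0.0382). The spans between the highest and lowest cohort mean were 0.87, 0.60 and 0.65. The F test called none of the 3 within either set of arrays (adjusted p from 0.180 to 0.396), where fewer mice enter. It called 0.976% of all probe sets within the low set and 0.603% within the high set. Jmjd1c 1426900_at also lost the call when any of 9 mice was left out (3 of MLL-AF10 and 6 of MLL-ENL, adjusted p from 0.0504 to 0.105), with a constant of 1 (0.0724) and with no filter (0.0572). Kdm2b 1459861_s_at (0.0529) and Kdm1a 1426762_s_at (0.0655) came next. In contrasts of 1 cohort with the other 4, limma called 3 member probe sets in MLL-AF1p and 2 in MLL-ENL, all lower. It called 0 in MLL-AF10, MLL-GAS7 and MLL-AF9, where 0.445%, 3.45% and 0.355% of all probe sets passed. There 1, 0 and 3 of the member probe sets had an unadjusted limma p below 0.05.

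Between mice of a cohort, Jmjd1c did not run closely with the other members. Over the 34 leukaemias, with cohort means removed, the Pearson correlation of Jmjd1c 1426900_at with the brightest probe set of each other member ran from -0.03 for Kdm4a to 0.37 for Kdm4c. The 3 Jmjd1c probe sets correlated with each other at 0.33 to 0.49, the pair of Kdm1a probe sets at 0.64 and the pair of Kdm2b probe sets at 0.78. Of 13332 other genes, the most like Jmjd1c 1426900_at were Tigd2 (0.74), the clock gene Per2 (0.70), Eci2 (0.70), Noct (0.69) and Hnrnpk (0.69). The most unlike were L1cam (-0.65), Sebox (-0.62), Plekhh1 (-0.59), Slamf7 (-0.59) and Dlx5 (-0.58). These values describe arrays that share one normalization.

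Other histone demethylases were read by the brightest probe set of each gene, where 28.3% of 13333 genes rose and 12.5% fell. Of 20 further demethylases and JmjC proteins 4 rose and 3 fell, with a median difference of 0.00 against 0.16 for all genes. Jarid2, a JmjC protein without demethylase activity that accompanies Polycomb repressive complexes, rose 2.47-fold (limma adjusted p = 3.27e-12). Kdm7a, which acts on H3K9 and H3K27, was 2.89-fold lower (5.94e-05). The Y-linked H3K4 demethylase Kdm5d was 2.66-fold lower (5.45e-07), with the normal mice and 4 of 5 MLL-AF9 mice being the Xist-low ones. Uty, also Y-linked, was 1.83-fold lower (limma adjusted p = 0.00160), and its mean was 8.63 in MLL-AF9 against 8.40 in normal marrow.

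Kdm1a itself was not called, and neither were 11 of 15 tested genes of a list of CoREST subunits and other Kdm1a partners. The other partners are Mta1, Mta2 and Mbd3 of the NuRD complex and the DNA-binding factors Gfi1 and Gfi1b. Of these 15, 1 rose and 3 fell (6.67% and 20%, against 28.3% and 12.5% of all genes), with a median difference of -0.08. Gfi1b, the erythroid and megakaryocytic repressor that recruits Kdm1a, was 7.75-fold lower (limma adjusted p = 2.51e-09), and its myeloid relative Gfi1 rose 3.19-fold (4.53e-05). Gse1 was 1.79-fold lower (0.00153). The erythroid and megakaryocyte markers called above were lower in the same comparison, and any link between them and Gfi1b was not tested.

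Of 9 tested partners of Kdm2b in the variant Polycomb complex 5 rose and 1 fell (55.6% and 11.1%, against 28.3% and 12.5% of all genes), with a median difference of 0.41, against 0.16 for all genes. Bcor, the corepressor subunit, rose 2.61-fold (limma adjusted p = 1.24e-08), and the ubiquitin ligase Ring1 rose 1.66-fold (0.00665). Yaf2 rose 1.62-fold (0.000257), and Usp7, a deubiquitinase, was the gene that fell (1.41-fold lower, 0.000117); it was named after its value was seen.

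The 17 tested methyltransferases write marks that these enzymes remove, except Dot1l, which acts on H3K79. Of the 17, 3 rose and 1 fell (17.6% and 5.88%, against 28.3% and 12.5% of all genes), with a median difference of -0.04. Kmt2b, an H3K4 methyltransferase, was 1.43-fold lower (limma adjusted p = 0.00995). The H3K9 methyltransferase Ehmt1 rose 1.38-fold (0.00489), and the H3K4 methyltransferase Setd1a rose 1.32-fold (0.0137).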

How the data were processed

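Whole bone marrow RNA from 34 leukaemic and 4 normal mice was labelled with biotin and read on Affymetrix GeneChip mouse arrays, 1 array per mouse, per the labels. The deposited table holds linear intensities that the authors scaled: the mean intensity after trimming 2% at each end is the same on all arrays. The software behind them is not stated in the labels. Intensities were turned into log2(intensity + 46.1), the constant being the 25th percentile of all values, and array medians, which spanned 0.537, were made equal. Probe sets above the array's median on at least 4 arrays were kept (29004). Means of the 6 groups were fitted to all 38 arrays with limma 3.58.1 in R 4.3.3 (32 residual degrees of freedom), with 2-sided tests and Benjamini-Hochberg adjustment over the kept probe sets. The 95% intervals are limma's. The number of arrays limits the precision, and array data give no counting depth.

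Gene names are those of the platform annotation: of 45101 probe sets, 64 are controls, 34958 carry 1 symbol, 932 several and 9211 none. A gene outside the members was read by its kept probe set with the highest mean. Named genes were all members, the 3 called genes of each list with the largest change, and the 5 genes most and the 5 least like Jmjd1c by Pearson correlation. Kdm3b, Uty, Usp7, Ltf, Mmp8, Itgb2l, Camp, Ngp, Mmp9, Cxcr2 and Nkg7 were named after their values were seen. Members and gene lists were chosen with earlier results of these data known. Groups come from the labels' titles, and the mice are taken as separate animals. Promoters are RefSeq's, with entries for 6 of 8 members. The statistics were tested on simulated data. Alternatives covered the scale, the constant, the filter, probe set choice, array weights, a trend, separate fits, each array left out, and, chosen after seeing the data, the sets of arrays and the 5 arrays with the brightest hybridisation controls.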

Additional observations from a re-analysis of the deposited data

Results flagged for a closer look

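By limma's F test 3 member probe sets differed among the 5 cohorts: Jmjd1c 1426900_at (adjusted p = 0.0382) and 1448049_at (0.00474), lowest in MLL-ENL, and Kdm2b 1452198_at (0.0226), lowest in MLL-AF1p.

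In 6 of 108 group values of the tested probe sets, 1 mouse stood far from the rest of its group, where chance gives about 1 in 20. Jmjd1c 1439998_at was 8.98 in MLL-AF1p_809, below the other 8 mice of its cohort at 9.45 to 9.87. Mouse MLL-GAS7_407 stood apart on both Kdm1a 1426762_s_at, low at 10.16, and Kdm6b 1456610_at, high at 11.01. Kdm1a 1426762_s_at was 10.42 in normal mouse 3, the others being at 10.56 to 10.59. Kdm2b 1459861_s_at was 11.40 in MLL-AF9_307 against 11.08 to 11.13 in its cohort, and Kdm2b 1452198_at was 10.40 in normal mouse 4 against 10.16 to 10.19.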

How the results depend on the processing

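With each of 38 arrays left out in turn, 7 to 9 member probe sets were called between leukaemia and normal marrow (8 of 18 with all arrays). For each cohort against normal marrow (31 calls in all) the count ran from 23 to 32. The F-test count among cohorts (3) ran from 2 to 5 (5 without MLL-AF1p_804 or MLL-GAS7_407), and that of each cohort against the other 4 (5) from 2 to 6 (3 without MLL-AF1p_801 or MLL-AF1p_806, 2 without MLL-AF1p_803). The F-test count was 5 on deposited values, with quantile normalization, with the constant at the median and with the filter at 19 arrays. With 1 probe set per gene the counts were 3 for leukaemia, 11 for cohorts against normal marrow and 3 for cohorts against each other, and leaving out probe sets ending in _x_at and _s_at gave 3 for the last, with fewer probe sets tested. Within the high set of arrays, with fewer mice, the counts were 4 for leukaemia and 17 for cohorts against normal marrow. Over all probe sets, 19.2% passed there for leukaemia, against 36.9% with all arrays, and 7.49% to 19% for single cohorts. Within both the low and the high set the counts were 0 by the F test, where 0.976% and 0.603% of all probe sets passed. There limma's unadjusted p was below 0.05 for 5 and 2 member probe sets. For each cohort against the other 4 the counts were also 0, where at most 1.07% and 0.276% of all probe sets passed. At most 5 member probe sets in the low and 3 in the high set had an unadjusted p below 0.05 in one contrast. With the array set as a term the counts were 8 for leukaemia, 31 for cohorts against normal marrow, 4 by the F test and 5 for cohorts against each other. The sign of 1 called difference turned: Kdm6b 1456610_at in MLL-AF10 was -0.80 and 0.048 within the high set, and the cause was not tested. Of single differences and F tests, 65 lost and 21 gained a call when 1 array was left out (8122 did neither), and 82 lost and 46 gained one under other settings (2817 did neither). No paired analysis was possible because the groups share fewer than 2 replicate numbers in the labels.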
